A study of Mus musculus with 3 samples.

Results

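The endoplasmic reticulum (ER) stress and heat shock genes described here are 9 genes read by 18 probe sets of an Affymetrix mouse expression array and chosen by gene name. A probe set is a group of short oligonucleotides that reads 1 transcript or several near-identical ones. Of the 18, 13 were among the 19824 non-control probe sets of the deposited ratio table, each with 3 values, and 5 were present only in the larger expression table of 45037 non-control probe sets. RNA came from livers of female BALB/c mice, an inbred strain, in 3 groups. Young control mice were 10 weeks old and ate normal food, old control mice were 50 weeks old and ate normal food, and old Chlorella mice were 50 weeks old and ate food with 2.0% powder of Chlorella, a green alga. RNA of 6 mice was pooled per group and each pool was read on 1 array, so that age or diet cannot be told apart from the array. The series title speaks of mice sensitized to ovalbumin (OVA), but the 3 sample labels give no sensitization. There are no replicates, hence no test, and every difference is between 2 pools.

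Proteins that fold poorly in the ER bind the chaperone Hspa5 (BiP) and release sensors in the ER membrane. The sensors raise chaperones and degradation factors through the transcription factors Xbp1 and Atf6, and slow translation while inducing Atf4 and its target Ddit3 (CHOP). In the cytosol, unfolded protein frees heat shock factor 1, which induces Hsp70 (Hspa1a and Hspa1b) and its partners. Hepatocytes, which secrete most plasma proteins, carry an extensive ER.

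By age, all 13 probe sets with ratios were lower in old control, by a median of -0.56 (log2, or 1.47-fold). Of all 16667 probe sets compared, 55.8% were lower and the median was -0.11. The 13 read 7 of the 9 genes, so some genes count more than once. The differences ran from -1.31 to -0.16, so most were modest. Just 1, for Hsph1, passed 2-fold downwards, against 8.80% of all probe sets, and none passed 2-fold upwards, against 9.55%. By the 2-fold count the 13 did not stand out, and what they shared was the direction. Young control was the highest of the 3 arrays for 12 of the 13, and for 49.4% of the 15735 probe sets with 3 values. Old control was the lowest for 10 of the 13, and for 35.4% of all.

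**Figure D1:**
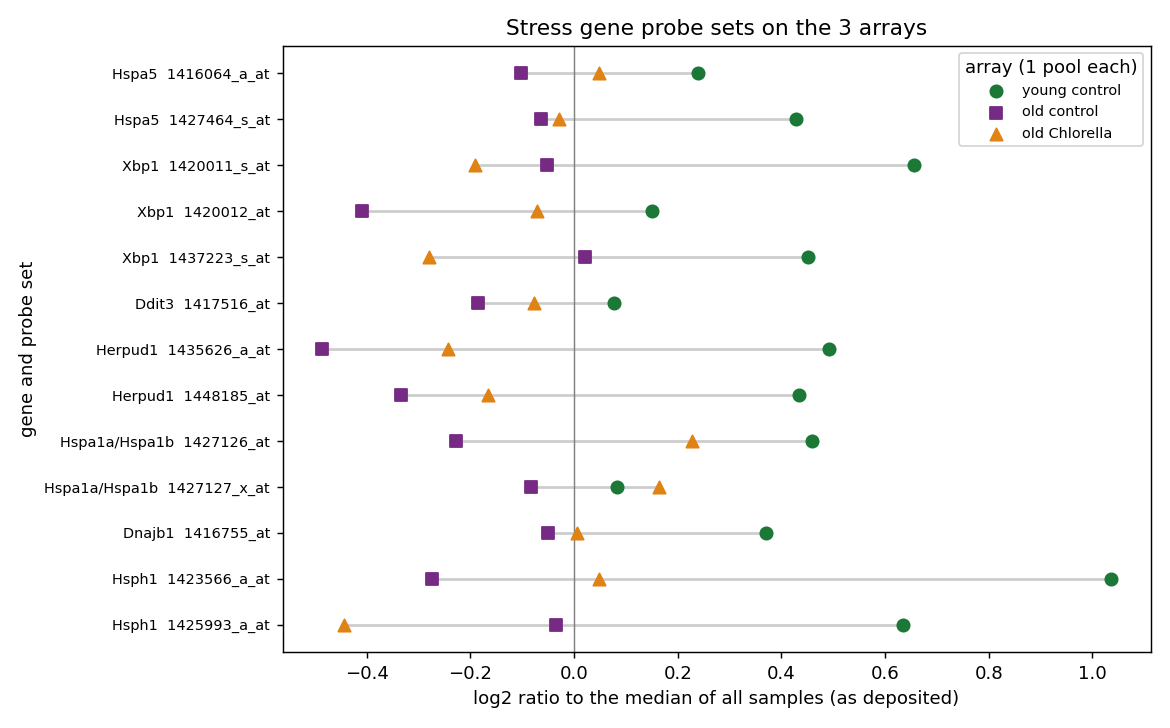
Deposited log2 ratio (horizontal axis) of the 13 stress gene probe sets of the ratio table on the 3 arrays, 1 point per array and a grey line over their range. Young control lies furthest right in 12 of 13 rows, and the widest row is 1423566_a_at of Hsph1, at 1.04 in young control and -0.27 in old control.

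Hspa5, the main Hsp70-type chaperone of the ER lumen, was read by 2 of the 18 probe sets. Probe set 1416064_a_at had log2 ratios of 0.24 in young control, -0.10 in old control and 0.05 in old Chlorella, at levels (log2 expression) of 13.94, 13.59 and 13.74. Probe set 1427464_s_at had ratios of 0.43, -0.06 and -0.03 in the same order. Both were thus highest in young control, and old control differed from it by -0.34 and -0.49 (log2). These sizes were ordinary on these arrays: 37.3% and 28.8% of all probe sets had a lower difference. Another probe set annotated to Hspa5, 1447824_x_at, which is not among the 18, went the other way by age, with ratios of -0.35, 0.22 and 0.47. Old control exceeded young control there by 0.57, so the direction for Hspa5 holds for 2 of its 3 probe sets. Its log2 expression was 10.13, 10.71 and 10.95 on the same arrays.

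Herpud1, a membrane protein of the ER-associated degradation machinery, had the largest differences by age of the ER genes among the 13. Probe set 1435626_a_at had log2 ratios of 0.49 in young control, -0.49 in old control and -0.24 in old Chlorella. Probe set 1448185_at had 0.43, -0.33 and -0.17. Both placed old Chlorella between the other arrays and nearer to old control. Old control was below young control by -0.98 (1.97-fold) and -0.77 (1.70-fold), and 9.40% and 15.9% of all probe sets had a lower difference.

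The DNA before the start of Hspa5 and Herpud1 is shown because both genes are classical targets of ER stress. Whether the elements marked below bear on the values of these genes was not tested. The letters, from RefSeq on build GRCm38.p6, cover the 250 bases before the start in the direction of transcription. They lie on the plus strand at chr2:34771840-34772089 for Hspa5 and chr8:94386179-94386428 for Herpud1, and capitals mark the ER stress response element of each.
Hspa5: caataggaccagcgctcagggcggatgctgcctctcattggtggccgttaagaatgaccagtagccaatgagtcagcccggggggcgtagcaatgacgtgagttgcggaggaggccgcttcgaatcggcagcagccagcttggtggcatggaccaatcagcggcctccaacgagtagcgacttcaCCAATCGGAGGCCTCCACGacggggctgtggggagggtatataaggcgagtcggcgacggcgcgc
Herpud1: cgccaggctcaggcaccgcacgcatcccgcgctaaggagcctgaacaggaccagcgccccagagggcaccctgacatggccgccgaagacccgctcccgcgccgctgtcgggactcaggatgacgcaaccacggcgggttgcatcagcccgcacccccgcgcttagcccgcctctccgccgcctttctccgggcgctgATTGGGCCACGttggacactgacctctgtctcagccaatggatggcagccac
The Hspa5 match has the form CCAAT, 9 free bases and CCACG, starting 65 bases before the start of the gene. Windows of 300 bases, with 50 bases after the start, were given for all 10 gene symbols of the set, and Hspa5 was the only one of the 10 with this form. Of all 32851 windows in the table, 0.119% held it on either strand. The Herpud1 match has the second form, ATTGG, 1 free base and CCACG, starting 52 bases before the start, and this form was in 0.0365% of all windows and in no other gene of the set. The second form was added to the search after the sequences had been seen. Another motif, the C/EBP-ATF composite element (TGATGNAAN), was matched in Herpud1, Trib3 and Asns and in 3.95% of all windows. The UPR element (TGACGTGG; 0.676% of windows) matched none of the 10. Overlap between motifs was allowed, and a match describes letters only.

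Xbp1, the transcription factor activated by splicing of its messenger RNA, was read by 3 of the 18 probe sets. They cannot separate the spliced from the unspliced form here. Probe set 1437223_s_at had log2 ratios of 0.45 in young control, 0.02 in old control and -0.28 in old Chlorella. Probe set 1420011_s_at had 0.66, -0.05 and -0.19. On both, the order ran from young control through old control to old Chlorella. Probe set 1420012_at had 0.15, -0.41 and -0.07 and placed old Chlorella between the other arrays. Against young control, old control was at -0.43, -0.71 and -0.56 and old Chlorella at -0.73, -0.85 and -0.22, in the order in which the probe sets are named. A further probe set of Xbp1 outside the 18, 1420886_a_at, had 0.72, -0.07 and -0.33, the order of the first pair. Old Chlorella was 2.06-fold below young control on it (-1.04, log2). Ddit3, a transcription factor that promotes cell death under lasting stress, differed little between the arrays. Its probe set 1417516_at had log2 ratios of 0.08 in young control, -0.19 in old control and -0.08 in old Chlorella. These differ by at most 0.26 (log2; 1.20-fold). A second Ddit3 probe set outside the 18, 1443897_at, was given only in the expression table, at 5.24, 6.95 and 6.31 in the same order, so that it was lowest in young control. Old control was above young control there by 1.71 (log2, or 3.27-fold), opposite in sign to the first Ddit3 probe set by age. However, it was dim in young control, where 5% of the probe sets with a value lay below 6.00. With no detection call, its difference is given without a direction for Ddit3.

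Trib3, a pseudokinase induced by Atf4 and Ddit3, and Asns, the enzyme that makes asparagine and an Atf4 target, had no values in the ratio table. Their levels come from the expression table, whose differences between arrays matched the ratio table within 0.002 (log2) wherever both had values. Trib3 probe set 1426065_a_at was at log2 expression 7.18 in young control, 6.81 in old control and 6.91 in old Chlorella, and 1456225_x_at at 7.03, 6.86 and 6.11. Asns probe set 1451095_at was at 5.77, 6.15 and 5.41, and 1433966_x_at at 1.98, 0.98 and 1.12. The Asns probe sets did not share a direction by age, the first being higher in old control by 0.38 (log2) and the second lower. Probe sets without a row in the ratio table had median levels of 4.50, 4.81 and 5.02 on the 3 arrays, against 9.10, 8.95 and 8.97 for those with a value. The tables hold no detection call, so the values of Trib3 and Asns are given without a direction for either gene.

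**Figure D2:**
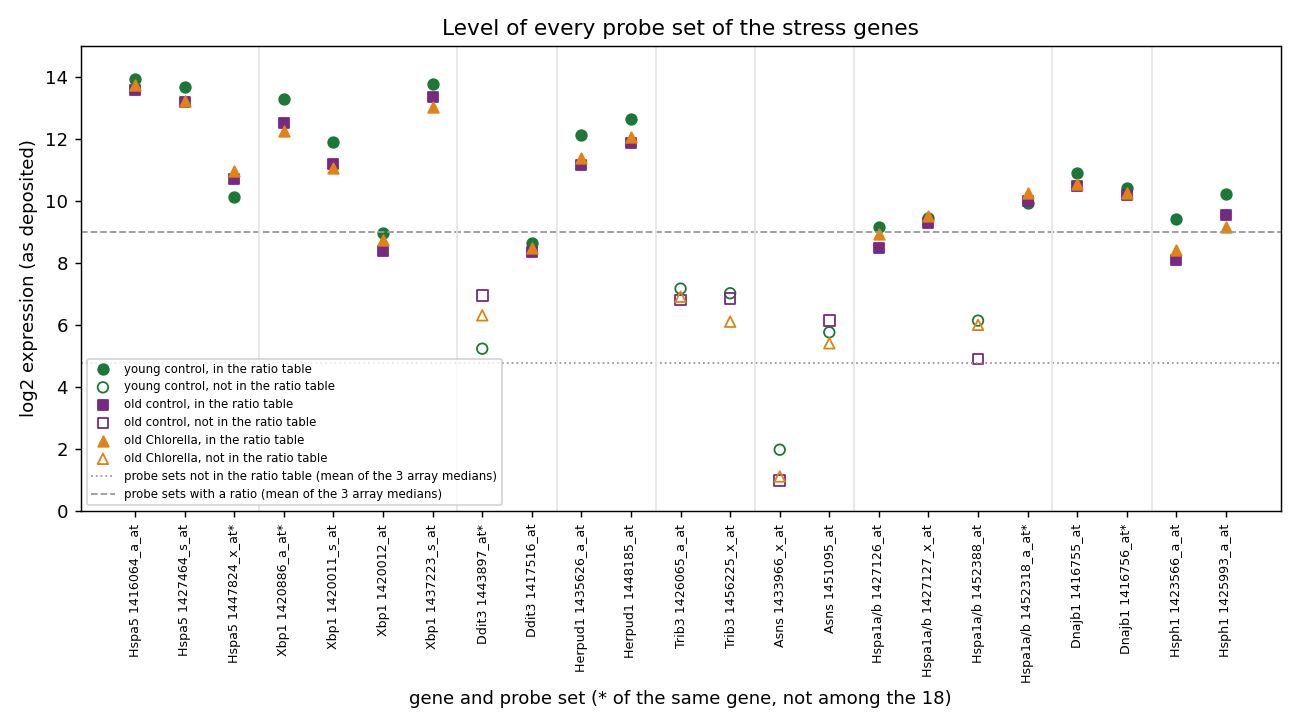
Deposited log2 expression (vertical axis) on the 3 arrays for the 18 probe sets and 5 more of the same genes (marked with an asterisk); filled symbols have a row in the ratio table and open symbols do not. Open symbols of the 18 (Trib3, Asns and 1452388_at) lie at 7.18 or below. Probe set 1447824_x_at of Hspa5 is lowest in young control, where the other Hspa5 probe sets are highest.

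Among the heat shock genes of the 13, Hsph1, an Hsp110-type exchange factor that recharges Hsp70, had the largest difference by age. Probe set 1423566_a_at had log2 ratios of 1.04 in young control, -0.27 in old control and 0.05 in old Chlorella. Probe set 1425993_a_at had 0.64, -0.03 and -0.44. Young control was the highest on both, but the old arrays were ordered differently. Old control was below young control by -1.31 (2.48-fold) on the first and -0.67 (1.59-fold) on the second, and 3.40% and 20.2% of all probe sets had a lower difference. By its letters alone, Hsph1 was the one gene of the set with a complete heat shock element in its window, printed here for that reason and marked in capitals (TTC, 2 free bases, GAA, 2 free bases and TTC, or its reverse complement, in 0.603% of all windows). Whether this element bears on the values of Hsph1 was not tested. It lies just after the start, on the minus strand at chr5:149636283-149636305 (GRCm38.p6).
Hsph1: gcagaTTCTGGAAAGTTCtcctc
Neither Hspa1a, Hspa1b nor Dnajb1 had these letters in its window, which says nothing of heat shock factor elsewhere in these genes.

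Hspa1a and Hspa1b encode nearly identical inducible Hsp70 proteins, and reads of one can come from the other. The annotation gives 1427126_at and 1427127_x_at to Hspa1b and 1452388_at to Hspa1a. Probe set 1427126_at had log2 ratios of 0.46 in young control, -0.23 in old control and 0.23 in old Chlorella, and 1427127_x_at had 0.08, -0.08 and 0.16. Old control was the lowest array on both, by -0.69 and -0.16 against young control. Probe set 1452388_at had the same order as the first with log2 expression of 6.14, 4.91 and 6.01 and no row in the ratio table. A further probe set outside the 18, 1452318_a_at, had ratios of -0.04, 0.04 and 0.30, so it did not place old control below young control. The direction for Hsp70 by age thus depended on the probe set. Dnajb1, the Hsp40-type partner that hands substrates to Hsp70, had ratios of 0.37, -0.05 and 0.01 on 1416755_at. Its other probe set, 1416756_at, had 0.13, -0.10 and -0.01. Both gave the order young control, old Chlorella, old control, with differences of -0.42 and -0.23 by age.

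With the 4 further probe sets of these genes that have ratios, 15 of 17 were lower in the old control array. The exceptions were 1447824_x_at of Hspa5 and 1452318_a_at of Hspa1b.

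By diet, with old Chlorella set against old control, none of the 13 differed by 2-fold, where 0.841% of all 16524 probe sets were higher and 0.678% lower by that much. Of the 13, 10 were higher and 3 were lower in old Chlorella, against 49.4% lower among all probe sets, and the median was 0.15 (log2; 1.11-fold) beside 0.00 for all. The differences ran from -0.41 for 1425993_a_at of Hsph1 to 0.46 for 1427126_at of Hspa1b. Hsph1 and Xbp1 each had probe sets on both sides of 0: 0.32 and -0.41 for Hsph1, and 0.34, -0.14 and -0.30 for Xbp1. Herpud1 was higher by 0.24 and 0.17, Hspa5 by 0.15 and 0.04, Dnajb1 by 0.06 and Ddit3 by 0.11. Hspa5, Herpud1 and the Hsp70 pair were slightly higher with Chlorella on each of their probe sets among the 13. They stayed so with array medians at 0 and after quantile normalization of the ratios. With bacterial controls at 0 every diet difference is raised by 0.14 (hybridization) or 0.32 (poly-A), so these scalings could not turn a positive value. The negative values of Xbp1 turned positive with bacterial controls at 0, 1420011_s_at with either kind and 1437223_s_at with the poly-A kind. The middle 50% of all probe sets lay between -0.18 and 0.20, a range that held 6 of the 13. The age and diet comparisons share the old control array, so a low value on that array alone makes both differences larger.

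Old Chlorella against young control combines age and diet. Of the 13, 12 were lower in old Chlorella, against 54.5% of all 16572 probe sets, by a median of -0.46 (1.37-fold) beside -0.09 for all. Probe set 1425993_a_at of Hsph1 passed 2-fold downwards (-1.08), where 6.87% of all did, and none passed upwards, where 8.32% did. The exception in direction was 1427127_x_at of Hspa1b, at 0.08, which turned negative with either kind of bacterial control at 0. After quantile normalization 1416064_a_at of Hspa5 and 1427126_at of Hspa1b were also above 0. The ER members were at -0.19 and -0.46 for Hspa5 and -0.73 and -0.60 for Herpud1. This comparison shares the young control array with the first and the old Chlorella array with the second.

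Further genes of these pathways were read through 6 lists matched by symbol, which hold none of the 9 genes. Over all lists, 35 of 135 probe sets passed 2-fold downwards by age and 7 upwards, with a median of -0.50 (log2). Over the whole array 8.80% passed 2-fold downwards and 9.55% upwards, the shares beside which each list's 2-fold counts by age stand. Beside each list's count below 0 by age stands the 55.8% of all probe sets that were lower. ER chaperones and folding enzymes had a median of -0.74, with 24 of 29 probe sets below 0, 9 of them by 2-fold, and 1 higher by 2-fold. Hsp90b1 (Grp94, the ER form of Hsp90) was lower by -1.56 on 1438040_a_at, at log2 expression 12.69 in young control and 11.13 in old control. The disulfide isomerase Pdia4 was at -1.38, the Hsp110-type chaperone Hyou1 at -1.35 on 1423290_at, and the co-chaperone Dnajc3 at -1.39 on 1449373_at. Pdia6, another disulfide isomerase, had probe sets of opposite sign, -1.34 on 1423648_at and 1.51 on 1430983_at. In young control and old control the first was at log2 expression 12.89 and 11.55, and the second, much dimmer, at 6.19 and 7.70. Of the 5 probe sets not below 0, bright ones were among them. Dnajb9 was higher by 0.44 on 1417191_at, at log2 expression 12.63 and 13.07 in the same order. Manf was higher by 0.51 on 1428112_at, at 13.01 and 13.52.

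ER-associated degradation genes had a median of -0.66, with 14 of 16 probe sets below 0 and 5 of them by 2-fold. Of these 5, 4 read Sel1l, the scaffold of the Hrd1 ubiquitin ligase, with differences of -2.11 (4.33-fold), -1.48, -1.36 and -1.08. The fifth read Os9, a lectin that delivers misfolded glycoproteins, at -1.27. The sensors and their proteases had a median of -0.62 over 10 probe sets, with 6 below 0 and 3 of these by 2-fold. They read Atf6 (-1.08 on 1435444_at, but 0.44 on its other probe set 1453288_at), the protease Mbtps1 that cleaves it (-1.14 on 1431385_a_at), and Creb3l3, a liver relative of Atf6 (-1.12). Ern1, the sensor that splices Xbp1, had -0.45 and 0.83 on its 2 probe sets with ratios on both arrays. For both Atf6 and Ern1 the positive probe set was the dimmer. In young control and old control, 1453288_at of Atf6 was at log2 expression 7.1 and 7.6, beside 9.9 and 8.8 for 1435444_at. The positive probe set of Ern1, 1438583_at, was at 6.5 and 7.4, beside 10.8 and 10.3 for 1437119_at. Also above 0 were the sensor Eif2ak3, by 0.10 on 1449278_at, and the protease Mbtps2, by 0.25 on 1436883_at. In the same order these were at 8.9 and 9.0 for Eif2ak3 and at 9.1 and 9.4 for Mbtps2.

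Genes of the Atf4 and CHOP branch had a median of -0.37, with 7 of 26 probe sets lower and 2 higher by 2-fold. Cebpb, a C/EBP transcription factor, was at -2.41 and -1.25, the amino acid transporter chain Slc3a2 at -1.38, and Ppp1r15a (Gadd34), the phosphatase subunit that restores translation, at -1.36. The hepatic hormone Fgf21 was at -1.26 and Aldh18a1, an enzyme of proline synthesis, at 1.13 on 1437325_x_at. That Aldh18a1 probe set was dim, at log2 expression 6.1 in young control and 7.3 in old control. Atf4 itself was at -0.63 and -0.34, neither past 2-fold.

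Cytosolic heat shock genes had a median of -0.18, near that of all probe sets, with 22 of 40 below 0. Within the list Hsp90aa1, the inducible cytosolic Hsp90, was lower on its 3 probe sets (-1.34, -1.03 and -0.95). The co-chaperone Fkbp4 was at -1.30 on 1416362_a_at. A dim probe set of Fkbp4, 1416363_at, had no age difference in the ratios. Its log2 expression was 3.9 in young control and 6.3 in old control. The Hsp40-type co-chaperones differed between probe sets: Dnajb4 was at -1.37 on 1431734_a_at, -0.63 on 1451177_at and 0.84 on 1439524_at. The last was the dimmest, at log2 expression 5.6 in young control and 6.4 in old control. In the same order 1431734_a_at was at 9.5 and 8.1, and 1451177_at at 10.6 and 10.0. Dnaja1 was at -1.07 on 1416288_at, -0.54 on 1460179_at and -0.002 on 1459835_s_at. Hspa8, the constitutive Hsp70, was higher on its 4 probe sets with ratios, from 0.22 to 1.63. The 1.63 was on the dim 1431182_at, at log2 expression 5.8 in young control and 7.5 in old control. The other 3 lay between 13.6 and 14.8 on these arrays. However, 1420622_a_at turned negative with the hybridization controls at 0 (-0.23). With the poly-A controls at 0, 1420622_a_at and 1420623_x_at turned negative (-0.53 and -0.15). The list's median was -0.01 after quantile normalization and 0.15 over the probe sets of the expression table, so it has no settled sign. Mitochondrial chaperones had a median of -0.91, with 5 of 14 lower and 2 higher by 2-fold. Hspa9 (mortalin) was at -1.57, -1.55 and -0.73 on its 3 probe sets and the protease Lonp1 at -1.56. Both probe sets of Hspe1, the Hsp10 partner of Hspd1, were higher (2.46 and 1.05) in each of the 5 scalings, whereas Hspd1 (Hsp60) was at -0.93. Of 38 list genes read by several probe sets, 11 had values on both sides of 0.

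**Figure D3:**
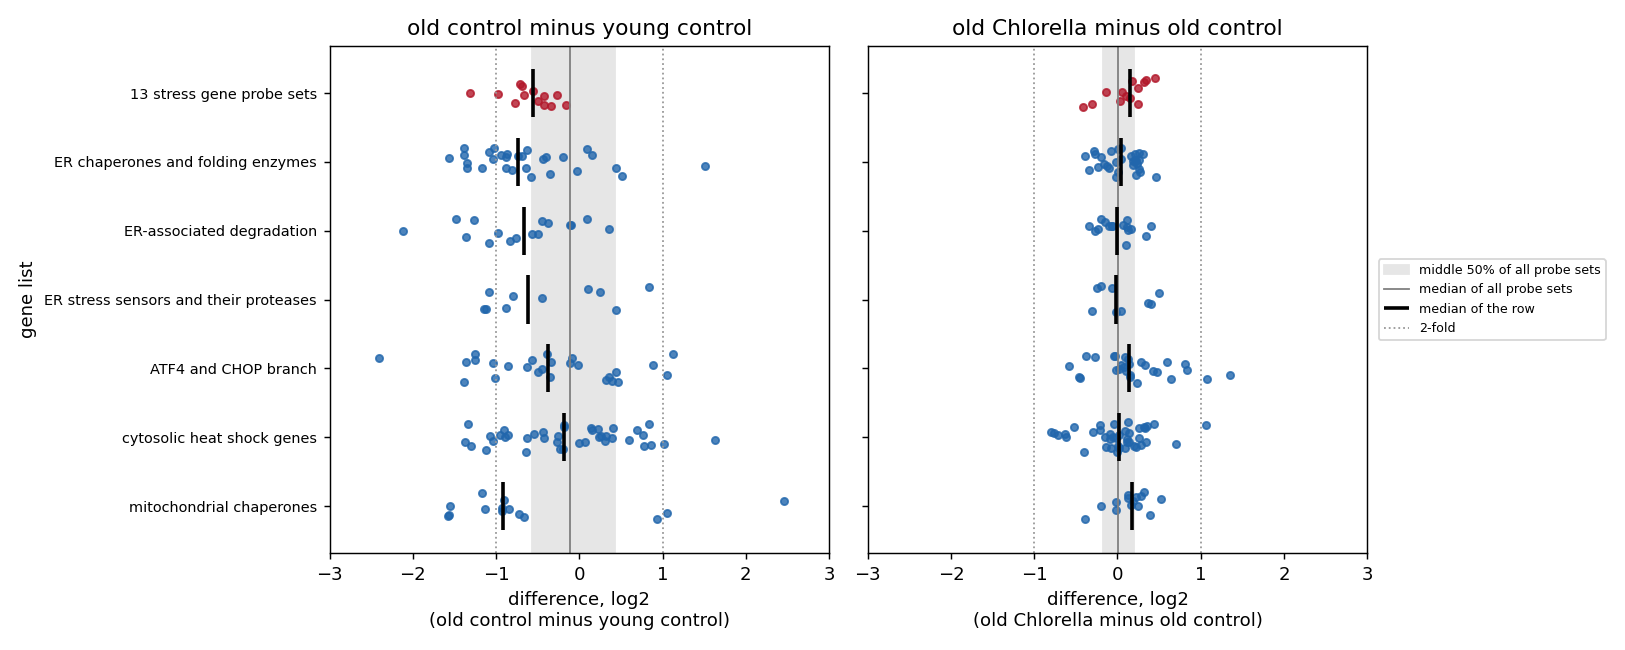
Difference in log2 ratio (horizontal axis) for each probe set of the 13 and of 6 pathway lists, for old control minus young control (left) and old Chlorella minus old control (right); black bars are row medians and the grey band holds the middle 50% of all probe sets. By age the medians run from -0.91 to -0.18, all below the -0.11 of all probe sets (the cytosolic list's sign depends on the scaling), whereas by diet they run from -0.02 to 0.17 and 3 of 138 list points lie past 2-fold, all to the right.

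By diet, 3 of 138 probe sets of the same lists passed 2-fold upwards, beside 0.841% over the whole array, and none downwards, beside 0.678%. Their median was 0.09 (log2). The 3 were Shmt2 on 1434204_x_at (1.35), an enzyme of serine and glycine metabolism whose 3 other probe sets with ratios gave 0.11 to 0.59, Fgf21 (1.07), and Hsf2 on 1444436_at (1.06), a heat shock factor. Fgf21 was at log2 expression 9.51 in young control, 8.25 in old control and 9.32 in old Chlorella, so the low array was old control. In that order the Shmt2 probe set was at 6.9, 6.6 and 7.9 and the Hsf2 probe set at 6.1, 5.9 and 7.0. Both were dim in old control, where 5% of the probe sets with a value lay below 6.33. The other Shmt2 probe sets lay between 8.1 and 11.0 on that array. The Shmt2 and Hsf2 counts past 2-fold thus rest on dim probe sets. Against young control, old Chlorella had 22 of 135 probe sets lower by 2-fold, beside 6.87% over the whole array, and 6 higher, beside 8.32%.

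Other features of the arrays moved with age beside these genes. The control probe sets of beta-actin and Gapdh, which read different stretches of each transcript, were lower in old control, with the smallest differences for the 3′ stretch. From 5′ through middle to 3′ the differences were -0.94, -0.88 and -0.56 (log2) for beta-actin. In the same order those of Gapdh were -0.53, -0.53 and -0.31. This gradient bears on RNA quality, and its part in the lower stress gene values was not tested. Over the 15 probe sets of hepatocyte markers the log2 of the summed signal was 19.00 in young control, 19.29 in old control and 19.21 in old Chlorella, and none was at 0. Albumin, the main secreted product of hepatocytes, was at log2 expression 15.32, 15.79 and 15.71. By age 11 of the 15 were higher in old control, among them albumin by 0.47, and 4 were lower: Pck1 on 2 probe sets (-1.46 and -2.36), Tat (-0.62) and Fgb (-0.38). Pck1 makes glucose precursors, Tat breaks down tyrosine and Fgb is a fibrinogen chain. For Kupffer cells and macrophages (8 probe sets) the summed level was 13.62, 14.82 and 14.79, for B and plasma cells (5) 9.68, 12.14 and 12.17, and for neutrophils (3) 9.80, 12.66 and 13.33, with none at 0 on any array. All 4 B-lineage and all 3 neutrophil probe sets with ratios on both arrays were over 2-fold higher in old control in the deposited scaling. The summed levels of the other 6 marker lists differed by at most 0.69 between arrays. The part of these cells in the lower stress gene values was not tested. In a bulk sample, fewer cells of a type and less RNA per cell cannot be told apart.

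The level of the bacterial control transcripts bears on the scale of every age difference. They were higher on the old control array by a median of 0.46 (log2; hybridization controls) and 0.75 (poly-A controls), so with either set to 0 the median of the 13 becomes -1.02 or -1.31 and that of all probe sets -0.57 or -0.86. Both lower every age difference by 1 amount, so neither could bring a member above 0. After quantile normalization of the deposited ratios, which can reorder probe sets, all 13 were below 0. Their median lay -0.34 from that of all probe sets, beside -0.45 as deposited. That normalization gives the ratios of the arrays 1 distribution. The share of all probe sets past 2-fold downwards was then 5.21% by age, beside 8.80% as deposited. By diet it was 2.64%, beside 0.678%. Quantile normalization of the expression values was not run.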

How the data were processed

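RNA pools of 3 groups were read on 1 array each, per the labels. The authors deposited log2 ratios of each array's normalized expression to the median of all samples, per the file headers, and a second deposited table of log2 expression. The submitters' processing notes name MAS5. Neither its version nor the scaling nor why cells are empty is given in the sources used here. The ratio column called Old was read as old control, and the expression table, whose columns carry sample accessions, gave the same differences within 0.002 (log2). No column was left unused.

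Differences of log2 ratios between 2 arrays were computed over probe sets with both values, without control probe sets, in Python 3.11.15 with pandas 2.3.3. A difference of 2-fold was counted. With 1 array per group there was no p-value, and precision is limited by the number of arrays. The counting was run on simulated data with differences set in advance, which checks the counting only and says nothing of the counts in these data. Genes were named from GEO's platform annotation: 34958 of 45101 probe sets had 1 symbol, 932 several and 9211 none, and all 18 agreed in symbol with the rule. Of 90 list symbols 84 were matched, and the other genes were not analysed here. All 18 probe sets are named. Of each list, up to 6 probe sets past 2-fold per comparison by size, or the 2 largest where none passed, could be named. Further probe sets of named genes, and some genes not past 2-fold such as Dnajb9, Manf, Eif2ak3 and Mbtps2, were added after their values were seen. Members, lists and markers were chosen with earlier results of these data known.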

Additional observations from a re-analysis of the deposited data

How the results depend on the processing

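Percentages in brackets are the shares of all probe sets past the same limit in the same setting. Array medians at 0 and either kind of bacterial control at 0 add 1 amount to every difference of a comparison. Of the 4 other scalings, only quantile normalization, run on the deposited ratios, could thus reorder probe sets. With it all 13 stayed below 0 by age, at a median of -0.36, and the median of old Chlorella against young control was -0.25. With the hybridization controls at 0 the age median was -1.02, with 7 of 13 past 2-fold downwards (26.2%), and against young control it was -0.69, with 3 past (13.9%). With the poly-A controls at 0 these were -1.31 with 12 past (42.4%) and -0.93 with 6 past (24.9%). By diet the medians were 0.30 and 0.47 with the 2 kinds of controls, and 1 probe set was lower with the poly-A kind (12.9%). Over all 18 in the expression table, 3 were lower by 2-fold by age (15.9%), 1 was higher by 2-fold by diet (15.9%) and 5 were lower by diet by any amount (46.1%). With a pseudocount of 50 the medians were -0.46 by age and -0.28 against young control, and 5 were lower by diet (46.1%). At 1.5-fold, 6 of 13 were lower by age (24.2%) and 6 against young control (21.7%). Without probe sets ending in _s_at or _x_at the age median was -0.67 over 9 probe sets and 1 was lower by diet (48.4%). With 1 mean per gene, 7 of 7 genes were lower by age (55.9%, with a median of -0.43 and 0 past 2-fold) and 7 of 7 against young control (54.7%). The means of the 7 genes used only probe sets among the 13. The shares in brackets used every probe set with ratios of each gene, so the measures differ. A mean signal of at least 100 left all 13. With all probe sets of these genes, chosen after seeing the data, 2 of 17 were lower by 2-fold in old Chlorella against young control (6.87%).

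For the 6 lists, quantile normalization gave 19 of 134 lower (5.21%) and 3 higher (6.02%) by age, and 4 lower by diet (2.64%). The expression table, with 193 probe sets, gave 19 higher by age (21.9%), 7 lower (11.5%) and 14 higher (15.9%) by diet, and 36 lower (13%) and 18 higher (23.5%) against young control. At 1.5-fold there were 63 of 135 lower (24.2%) and 16 higher (19.6%) by age, 5 of 138 lower (4.1%) and 8 higher (4.55%) by diet, and 59 of 135 lower (21.7%) and 17 higher (19%) against young control. The fewer or further probe sets, the other fold and the added amounts set these counts apart by construction; for quantile normalization the cause was not tested. No paired analysis was possible because each group has 1 array, and for the same reason no array could be left out.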
